A study of Mus musculus with 8 samples.

Results

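The genes described are the collagen chain genes and a set of genes known from leptomeningeal fibroblasts, the connective tissue cells of the arachnoid and pia that wrap the cortex. They were chosen by symbol: every row of the count table named as a collagen alpha chain, and 13 named genes of leptomeningeal fibroblasts, each kept where at least 4 of the 8 libraries held 10 or more reads. Of 57 matching rows 49 were kept, 36 of them collagens and 13 leptomeningeal genes, out of 22000 rows in the table. The 8 collagen rows under the minimum were Col2a1, Col4a3, Col4a4, Col6a5, Col6a6, Col9a1, Col10a1 and Col17a1, with 20 to 69 reads over all libraries. Just inside the minimum were Col13a1 with 86 reads and Col4a6 with 105, both at 10 or more reads in 4 libraries, and just outside it Col4a3 with 69 and Col6a5 with 66, both at 3 libraries. All 4 libraries in which Col13a1 met the minimum came from the second run of animal numbers, so a difference between the runs was built into its choice. The other 48 genes met it in at least 2 libraries of each genotype and of each run.

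Messenger RNA from whole cortex was sequenced in 8 mice, 4 labelled Mef2c heterozygous and 4 labelled wild type at Mef2c, with 2 males and 2 females in each genotype and 1 library per mouse. The animal numbers in the sample titles fall into 2 runs of close numbers, a first and a second, each with 1 animal of each sex and genotype, and the labels do not say what the runs stand for. Per the labels, library preparation took the samples in random order. Replicates 1 and 2 of either genotype belong to the first run and replicates 3 and 4 to the second. Heterozygous replicates 1 and 3 and wild type replicates 2 and 3 were male. The sources used here give neither strain nor age nor the allele of Mef2c. Libraries held 16092773 to 17841377 reads, of which the 49 genes took between 0.0499% and 0.0643%. Mef2c, a transcription factor gene, had 1233, 1336, 1391 and 1255 CPM (reads of the gene over a library total scaled by TMM, in the usual unit) in the libraries labelled heterozygous, replicates 1 to 4, and 1038, 939, 999 and 1003 CPM in those labelled wild type. Mef2c was called, with a log2 fold change of 0.39 ± 0.05 (SE) and a Benjamini-Hochberg p of 0.000154 by edgeR's quasi-likelihood fit. Whether the altered allele still gives reads that count toward Mef2c is not known. The targeted gene thus goes against its label, and every direction given below refers to the libraries as labelled.

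Collagens are proteins of 3 chains wound into a triple helix, and their genes fall into classes by the structure that the protein builds. Fibrillar collagens make the tensile fibres of connective tissue, type IV collagen makes the sheet of the basement membrane around vessels and under the pia, and fibril-associated and transmembrane collagens sit on fibres or in cell membranes. In the brain, fibrillar collagen and the small leucine-rich proteoglycans that bind it are found mainly in the meninges and around larger vessels, while type IV collagen is made by endothelial cells and pericytes throughout the cortex, and some collagens are made by neurons. Leptomeningeal fibroblasts also carry transporters of the barrier between blood and cerebrospinal fluid, and make retinoic acid and insulin-like growth factor 2.

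Sequence upstream of the transcription start is shown for Slc13a4, the 1 gene of the 49 that passed the test in a comparison, for Col8a1, the gene with the smallest p by genotype, and for Col13a1, whose sequence was the 1 among 40 found for the 49 genes to hold a MEF2 site. The sequences are the 250 bases before the start in RefSeq (GRCm38.p6), on the strand of the gene. Capitals mark CCAAT and GGGCGG on either strand in the first and second sequence and the MEF2 site in the third. In each case the last base printed adjoins the RefSeq start. For Slc13a4 the last 5 bases lie within the first exon as GENCODE M21 annotates it.
Slc13a4 (chr6:35308127-35308376, minus strand): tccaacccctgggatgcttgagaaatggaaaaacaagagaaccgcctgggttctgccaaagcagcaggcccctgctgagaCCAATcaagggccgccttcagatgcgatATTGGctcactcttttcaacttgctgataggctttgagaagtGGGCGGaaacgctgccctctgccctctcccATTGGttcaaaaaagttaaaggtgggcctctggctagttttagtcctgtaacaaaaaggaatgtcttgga
Col8a1 (chr16:57754738-57754987, minus strand): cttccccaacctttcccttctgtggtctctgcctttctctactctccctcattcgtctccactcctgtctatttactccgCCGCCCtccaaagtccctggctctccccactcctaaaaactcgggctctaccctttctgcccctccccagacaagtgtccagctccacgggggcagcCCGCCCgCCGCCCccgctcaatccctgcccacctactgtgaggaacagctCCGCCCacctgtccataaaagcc
Col13a1 (chr10:61979109-61979358, minus strand): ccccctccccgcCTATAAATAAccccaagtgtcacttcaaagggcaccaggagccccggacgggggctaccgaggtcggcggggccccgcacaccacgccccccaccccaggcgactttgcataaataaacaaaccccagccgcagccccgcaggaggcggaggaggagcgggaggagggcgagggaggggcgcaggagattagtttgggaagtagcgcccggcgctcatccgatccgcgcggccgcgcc
The window of Slc13a4 held CCAAT 3 times and GGGCGG 1 time, and that of Col8a1 held GGGCGG 4 times and no CCAAT. The MEF2 site of Col13a1 overlaps its 1 match to TATAAA. RefSeq windows were found for 40 of the 49 genes. Of these, 17 (42.5%) held CCAAT, 26 (65.0%) held GGGCGG, 4 (10%) held TATAAA and 1 (2.5%) held a MEF2 site. Among all 27025 genes with such windows, the shares were 37.5%, 35.4%, 14.3% and 3.42%. That set was not limited to genes with reads in these libraries, as the 49 were, so the shares are not of matched sets. A gene with more than 1 start counted if any of its windows matched. A match describes the letters only.

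Tested across all 13879 genes that passed a filter on low counts, none of the 49 genes differed between the genotypes by edgeR's quasi-likelihood test with sex as a term at a Benjamini-Hochberg adjusted p under 0.05. Of all genes tested, 0.267% were called in that comparison. At an unadjusted p under 0.05 stood 8 of the 49, 7 higher and 1 lower in the libraries labelled heterozygous, which is 16.3% beside 7.24% of all genes. The median log2 fold change was 0.11 over the 49 and -0.001 over all genes tested. Between the runs of animal numbers 1 of the 49, Slc13a4, was called, and it was higher in the second run, where 0.382% of all genes were called in either direction. The genes are taken up below by what they do, first those of leptomeningeal fibroblasts and then the collagens.

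Small leucine-rich proteoglycans bind collagen fibrils and set their spacing and width. Fmod, which codes for fibromodulin, had the highest level per exon length of the 5, at 6.03 CPM per kilobase of merged exons, followed by Ogn (osteoglycin) at 3.97, Bgn (biglycan) at 2.71, Dcn (decorin) at 1.91 and Lum (lumican) at 0.890. Merged exons take in every annotated transcript and came to 3306 bases for Fmod, 6099 for Bgn and 5838 for Dcn. The order per length thus depends on the annotation. Ogn (ENSMUSG00000021390.6, chromosome 13 from 49608046 to 49624501 in GRCm38) lies within Cenpp on the opposite strand. It had 8.41, 14.6, 13.9 and 10.2 CPM in the libraries labelled heterozygous and 6.52, 9.85, 8.54 and 9.45 CPM in those labelled wild type, replicates 1 to 4 in each case. Heterozygous replicates 2, 3 and 4 stood above all wild type libraries, while heterozygous replicate 1 lay below 3 of them, so the groups overlapped. The log2 fold change was 0.45 ± 0.18 (SE), the largest of the 13 leptomeningeal genes, with a Benjamini-Hochberg p of 0.535 by edgeR's quasi-likelihood fit.

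Fmod had 14.0, 25.9, 23.6 and 23.2 CPM in the libraries labelled heterozygous and 14.8, 19.5, 19.6 and 19.0 CPM in those labelled wild type. Its 2 lowest libraries were replicate 1 of either genotype, both of the first run, and 3 of the 4 heterozygous libraries stood above every wild type library. Dcn had 8.06, 16.7, 13.1 and 11.9 CPM and 7.45, 8.64, 11.2 and 12.2 CPM, and here too replicate 1 of either genotype gave the 2 lowest values. Bgn had 14.3, 23.4, 17.8 and 17.9 CPM and 15.0, 11.6, 17.2 and 15.2 CPM, with wild type replicate 2 the lowest. For all 3 genes the groups overlapped, with log2 fold changes by genotype of 0.24 ± 0.17 (SE) for Fmod, 0.32 ± 0.20 (SE) for Dcn and 0.31 ± 0.13 (SE) for Bgn, none of them past the test. Lum was spread along the runs instead. It had 1.48, 1.45, 1.22 and 2.02 CPM in the first run (heterozygous replicates 1 and 2, then wild type replicates 1 and 2) and 2.67, 3.02, 2.18 and 3.39 CPM in the second (replicates 3 and 4 in the same order), on 21 to 56 reads a library. The runs did not overlap, and the log2 fold change of the second against the first run was 0.86 ± 0.28 (SE), with a Benjamini-Hochberg p of 0.217 by edgeR's quasi-likelihood fit. By genotype the log2 fold change of Lum was -0.03 ± 0.33 (SE).

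The growth factor genes of the set were Igfbp2 and Igf2. Igfbp2 codes for a secreted protein that binds insulin-like growth factors and, with 20.7 CPM per kilobase of merged exons, had the highest level per length of all 49 genes. Its values were 38.0, 42.2, 33.1 and 39.7 CPM in the libraries labelled heterozygous and 33.4, 34.8, 38.7 and 46.1 CPM in those labelled wild type. The ranges lay over each other, with a log2 fold change of -0.001 ± 0.09 (SE). Igf2, the growth factor gene itself, was far lower, at 0.330 CPM per kilobase of merged exons and 14 to 47 reads a library. It had 0.829, 2.67, 2.92 and 1.79 CPM in the libraries labelled heterozygous and 1.22, 1.96, 2.01 and 1.70 CPM in those labelled wild type. Heterozygous replicate 1 was the lowest of all 8 libraries and heterozygous replicate 3 the highest, 3.52 times as high. With so few reads a share of this spread is counting error. Igf2 overlaps the antisense gene Igf2os and, on the same strand, Gm49394.

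Among the transporter genes, Slc6a20a, which overlaps Ccr9 and codes for a carrier of proline and other imino acids, had the highest level at 4.78 CPM per kilobase of merged exons. It had 19.9, 24.9, 18 and 20.4 CPM in the libraries labelled heterozygous and 16.2, 16.9, 17.5 and 22.2 CPM in those labelled wild type, with overlapping groups and a log2 fold change of 0.19 ± 0.11 (SE). Slc6a13, the gene of the GABA and taurine carrier GAT2, had its highest library, heterozygous replicate 3, at 1.64 times its lowest, heterozygous replicate 1. Its values were 4.98, 7.60, 8.14 and 7.11 CPM and 5.88, 6.80, 6.42 and 6.73 CPM, with a log2 fold change of 0.11 ± 0.17 (SE) by genotype.

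Slc13a4 (ENSMUSG00000029843.4, chromosome 6 from 35267957 to 35308131), the gene of a sodium-coupled sulfate transporter, was the 1 gene called in the comparison of the runs. It had 5.45, 9.75, 5.76 and 6.62 CPM in the first run and 10.4, 12.4, 8.65 and 12.3 CPM in the second, listed as heterozygous, heterozygous, wild type, wild type. The means were 6.90 ± 1.96 and 10.9 ± 1.78 CPM (SD, n = 4). Heterozygous replicate 2 of the first run, at 9.75 CPM, stood above wild type replicate 3 of the second, so the runs overlapped. The log2 fold change of the second against the first run was 0.66 ± 0.15 (SE), with a Benjamini-Hochberg p of 0.0452 by edgeR's quasi-likelihood fit. With a library left out, the adjusted p in the same edgeR test was 0.158 for heterozygous replicate 1, 0.142 for replicate 3 and 0.197 for replicate 4, and 0.141 for wild type replicate 1, 0.0866 for replicate 3 and 0.124 for replicate 4, so that each of these ended the call. It held without replicate 2 of either genotype. It also ended with limma-voom (adjusted p 0.0705) and with the RNA integrity number, which lay between 8.6 and 9 in all libraries, as a term in edgeR (adjusted p 0.0578). By genotype the log2 fold change was 0.18 ± 0.26 (SE), and the groups overlapped. Slc22a6, the gene of the organic anion transporter OAT1, had 2.96, 6.79, 4.89 and 5.41 CPM in the first run and 7.95, 6.66, 5.73 and 9.21 CPM in the second, in the same order of libraries. Its log2 fold change between the runs was 0.57 ± 0.20 (SE), with a Benjamini-Hochberg p of 0.279 by edgeR's quasi-likelihood fit, and it did not pass. Heterozygous replicate 1 was the lowest library for both Slc13a4 and Slc22a6.

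Aldh1a2 codes for the enzyme that makes retinoic acid, and Foxc1 for a transcription factor needed for the meninges to form and also present in pericytes. Aldh1a2 had 2.31, 3.89, 3.48 and 5.32 CPM in the libraries labelled heterozygous and 3.38, 5.01, 3.90 and 5.09 CPM in those labelled wild type, with overlapping groups and a log2 fold change of -0.23 ± 0.23 (SE). Foxc1 had 8.59, 9.11, 6.28 and 5.71 CPM and 5.82, 5.70, 6.65 and 5.21 CPM. Its 2 highest libraries were heterozygous replicates 1 and 2 of the first run, while heterozygous replicates 3 and 4 lay within the wild type range. The log2 fold change of Foxc1 by genotype was 0.35 ± 0.17 (SE) over all libraries, and the difference of mean log2(CPM + 0.5) was 0.58 within the first run and 0.02 within the second.

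**Figure D1:**
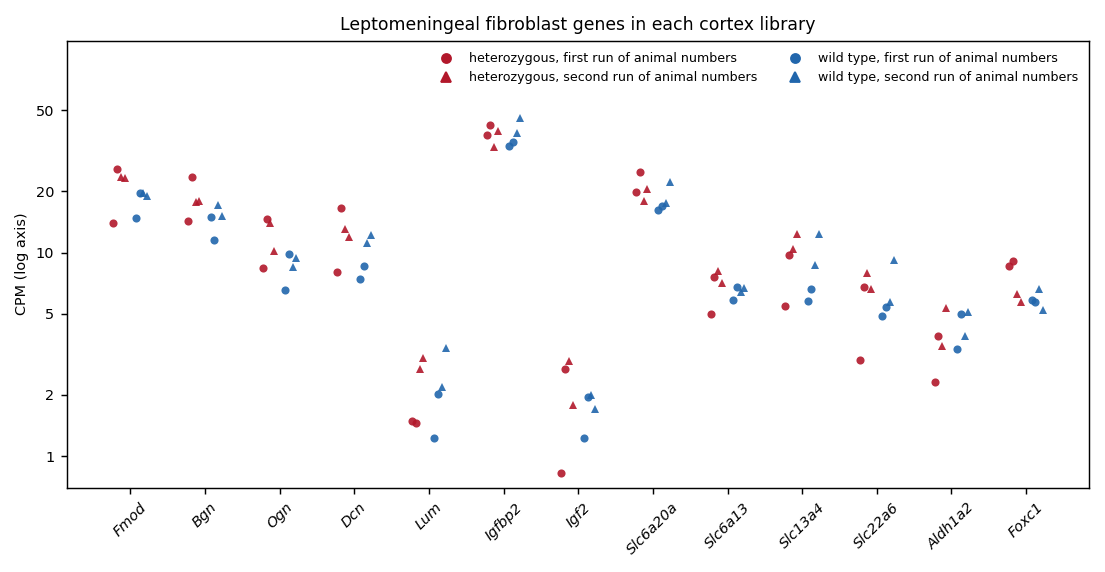
CPM on a log axis for the 13 leptomeningeal fibroblast genes, with 1 point per library, colour for the labelled genotype and shape for the run of animal numbers. Heterozygous replicate 1 was the lowest library for 6 of the 13, and Igfbp2 was the gene of highest CPM in each library.

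The lowest libraries were often the same from gene to gene. Heterozygous replicate 1 was the lowest library for 6 of them, wild type replicate 1 for 4 and wild type replicate 2 for 1, all of the first run. Over all genes tested, these libraries were the lowest for 15.2%, 13.3% and 11.7% of genes. Heterozygous replicate 2, also of the first run, was the highest library for 6 of the 13, beside 13.4% of all genes. The summed level of the 13 genes was 129, 189, 161 and 165 CPM in the libraries labelled heterozygous and 122, 135, 148 and 168 CPM in those labelled wild type. In whole cortex, fewer fibroblasts, less RNA per fibroblast and a lower level in other cells that express these genes cannot be told apart. How much of the meninges stayed on each cortex is not given in the sources used here.

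Further markers of the tissue were set beside these sums. Of a further list of fibroblast and meningeal markers, 19 of 24 tested had a log2 fold change above 0 by genotype and 19 had one above 0 between the runs, none of them called. Their medians were 0.12 and 0.16. Between males and females 5 of the 24 had a male minus female log2 fold change above 0 and 19 below, with a median of -0.12 and none called. The summed level of the list was 997, 1346, 1319 and 1361 CPM in the libraries labelled heterozygous and 1109, 1024, 1187 and 1183 CPM in those labelled wild type, with heterozygous replicate 1 the lowest. A few genes weigh most in this sum, with Ptgds at 433 to 674, Nov at 119 to 174 and Apod at 106 to 140 CPM. As a mean of centred log2(CPM + 0.5), wild type replicate 2 was lowest at -0.25, before heterozygous replicate 1 at -0.21. The list is not particular to fibroblasts: Pdgfra also stands on the oligodendrocyte precursor list and Pdgfrb on the pericyte list. Gjb6, at 65.3 to 96.2 CPM, and Nnat, at 38.1 to 133 CPM, were high as well. From which cells the reads of Ptgds, Nov, Apod, Gjb6 and Nnat came was not tested, so the sum is not a measure of the meninges alone. Choroid plexus markers, which share some transporters with the meninges, ranged from Otx2 with 0 to 2 and Folr1 with 0 to 7 reads a library to Kl with 26 to 57, and 5 of the 13 passed the filter on low counts. Kcnj13 and Sostdc1 each had 8 to 15 reads. Ttr, the most abundant transcript of that tissue, had 0.178, 2.26, 0.808 and 1.51 CPM in the libraries labelled heterozygous and 1.28, 0.518, 0.0573 and 0.848 CPM in those labelled wild type. The 13 choroid plexus markers summed to 4.62, 8.41, 8.33 and 7.61 CPM and 6.40, 4.95, 4.75 and 7.45 CPM, and their part in the differences between libraries was not tested. A list of 14 cartilage, bone and head muscle genes summed to 72.8, 65.4, 77.5 and 76.6 CPM and 79.5, 64.4, 71.2 and 68.4 CPM. It ran from Bglap and Tnnt3 at 0 or 1 reads a library to Acta1 at 118 to 190, Runx2 at 155 to 240 and Sox9, which astrocytes also express, at 522 to 745. Red blood cell genes summed to 74.7, 71.5, 58.0 and 35.2 CPM in the libraries labelled heterozygous and 64.2, 112, 73.7 and 71.2 CPM in those labelled wild type, and ran from Slc4a1 at 0 to 5 reads a library to the globin genes Hbb-bs at 280 to 751 and Hba-a1 at 217 to 797. The part of these lists in the values of the 49 genes was not tested.

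**Figure D2:**
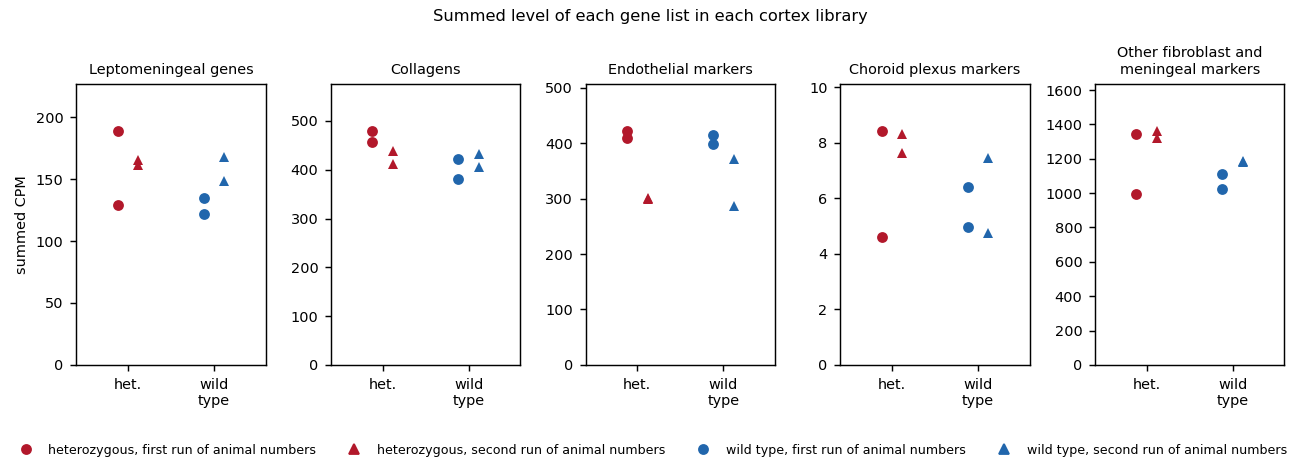
Summed CPM of 5 gene lists, with 1 point per library, labelled genotype on the x axis and by colour, and the run of animal numbers by shape; every y axis starts at 0. The leptomeningeal sum was highest in heterozygous replicate 2 and the endothelial sum was lower in all 4 libraries of the second run than in any of the first.

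Fibrillar collagens were led by Col5a1, a chain of type V collagen that starts fibril assembly, at 3.70 CPM per kilobase of merged exons. It had 45.7, 30.3, 27.6 and 29.5 CPM in the libraries labelled heterozygous and 26.2, 30.8, 29.1 and 32.1 CPM in those labelled wild type. Heterozygous replicate 1 stood alone above the other 7 libraries, which lay between 26.2 and 32.1 CPM. Its log2 fold change came to 0.17 ± 0.14 (SE), and it was -0.02 without heterozygous replicate 1. Col11a2, a chain of type XI collagen, was next with 2.15 CPM per kilobase of merged exons and was the steadiest collagen: its 8 libraries lay between 12.6 and 16.3 CPM, a ratio of 1.30.

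Type I collagen, the main fibre of pia and dura, is built of 2 chains of Col1a1 and 1 of Col1a2. Per kilobase of merged exons the genes had 1.37 and 1.36 CPM, over 6563 and 12426 bases of such exons. Col1a1 had 8.0, 9.80, 11.4 and 11.3 CPM in the libraries labelled heterozygous and 6.58, 6.85, 8.54 and 9.64 CPM in those labelled wild type. In either genotype both libraries of the second run stood above both of the first. In log2 terms the fold change was 0.35 ± 0.15 (SE) by genotype and 0.39 ± 0.13 (SE) between the runs, with a Benjamini-Hochberg p of 0.238 for the latter by edgeR's quasi-likelihood fit. Col1a2 had 14.8, 17.9, 16.3 and 18.8 CPM and 14.0, 18.7, 19.0 and 15.9 CPM, with log2 fold changes of 0.006 ± 0.12 (SE) by genotype and 0.10 ± 0.11 (SE) between the runs. Col3a1, the type III chain of soft connective tissue, had 2.43, 3.42, 2.85 and 3.57 CPM in the first run and 3.79, 3.69, 4.41 and 3.94 CPM in the second, with no overlap of the runs and a log2 fold change between them of 0.37 ± 0.21 (SE) that did not pass. Col5a3, a low type V chain with 19 to 61 reads a library, had 1.90, 2.09, 3.17 and 3.41 CPM in the libraries labelled heterozygous and 1.86, 1.21, 2.06 and 1.15 CPM in those labelled wild type. Wild type replicate 3 lay above heterozygous replicate 1, so the groups overlapped, and the log2 fold change was 0.74 ± 0.30 (SE) with a Benjamini-Hochberg p of 0.539 by edgeR's quasi-likelihood fit. The other 4 fibrillar genes were Col5a2, Col11a1, Col24a1 and Col27a1, with log2 fold changes by genotype of 0.16, -0.27, -0.30 and 0.02, none of them called.

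Col4a1 and Col4a2 code for the chains of the type IV collagen of nearly all basement membranes, vessels included. They lie head to head on chromosome 8, Col4a1 from 11198423 to 11312826 on the minus strand and Col4a2 from 11312805 to 11449287 on the plus strand, and their annotated 5′ ends overlap by 22 bases. Col4a2 had 64.3, 53.0, 50.5 and 50.5 CPM in the libraries labelled heterozygous and 58.5, 50.3, 45.3 and 47.8 CPM in those labelled wild type. Col4a1 had 46.3, 45.9, 44.8 and 41.4 CPM and 35.5, 49.4, 38.3 and 37.0 CPM. Between the runs the log2 fold change was -0.22 ± 0.07 (SE) for Col4a2, with a Benjamini-Hochberg p of 0.222 by edgeR's quasi-likelihood fit, and -0.13 ± 0.08 (SE) for Col4a1, and neither passed. By genotype the values were 0.11 ± 0.09 (SE) and 0.16 ± 0.08 (SE). The minor chains Col4a5 and Col4a6 had 0.410 and 0.0960 CPM per kilobase of merged exons beside 7.94 for Col4a2 and 5.67 for Col4a1. Col15a1 and Col18a1, the multiplexin chains of vessel basement membranes, stood at 0.923 and 0.526 on that scale, with log2 fold changes by genotype of -0.0003 and 0.25. Col18a1 overlaps Slc19a1.

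Between the runs the other collagens of this class went both ways. Their log2 fold changes were 0.06 for Col15a1, 0.14 for Col4a5, -0.24 for Col18a1 and -0.20 for Col4a6, none called. Endothelial markers were lower in the second run. All 12 had a log2 fold change below 0 in the second run, with a median of -0.41, and 4 were called: Eng (-0.51), Ly6c1 (-0.40), Slc2a1 (-0.35) and Pecam1 (-0.53), which code for surface proteins and the glucose carrier of vessel cells. Their summed level was 422, 409.9, 398 and 415 CPM in the first run and 299, 302, 372 and 287 CPM in the second, listed as heterozygous, heterozygous, wild type, wild type. Of pericyte and smooth muscle markers, 9 of 12 were below 0 in the second run with a median of -0.18, and none was called. The part of these markers in the values of Col4a1 and Col4a2 was not tested.

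Type VI collagen forms beaded filaments around cells. Col6a1 had the highest level per length of all collagens, 13.7 CPM per kilobase of merged exons, while Col6a2 had 2.22 and Col6a3, the third chain of the usual trimer, 0.142. Their merged exons came to 4380, 8326 and 11963 bases. Col6a1 had 77.4, 65.3, 53.6 and 63.8 CPM in the libraries labelled heterozygous and 48.6, 60.2, 48.4 and 62.3 CPM in those labelled wild type, and Col6a2 had 18.7, 23.9, 20.8 and 17.9 CPM and 13.4, 17.6, 19.2 and 16.6 CPM. Both overlapped between the genotypes, with log2 fold changes of 0.24 ± 0.12 (SE) and 0.29 ± 0.12 (SE). Col6a3 had 1.95, 2.09, 1.93 and 2.18 CPM in the libraries labelled heterozygous and 0.698, 1.67, 1.89 and 1.21 CPM in those labelled wild type. The groups did not overlap, though heterozygous replicate 3 and wild type replicate 3 lay side by side. These 2 libraries held 31 and 33 reads of Col6a3, so their order depends on the scaling of the libraries. The log2 fold change of 0.61 ± 0.31 (SE) did not pass. Col6a4 had 2.90, 5.40, 2.80 and 2.07 CPM and 4.66, 1.55, 2.52 and 4.36 CPM, with heterozygous replicate 2, wild type replicate 1 and wild type replicate 4, all female, as its 3 highest libraries. The male minus female log2 fold change of Col6a4 was -0.76 ± 0.28 (SE) and did not pass, while heterozygous replicate 4, also female, lay below 3 of the 4 males.

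Col8a1 (ENSMUSG00000068196.5, chromosome 16 from 57624258 to 57754737) codes for a chain of type VIII collagen, a short network collagen of vessel walls and of the eye, and had the smallest p of the 49 genes by genotype. It had 2.43, 2.09, 1.49 and 2.80 CPM in the libraries labelled heterozygous and 3.84, 3.80, 4.93 and 4.12 CPM in those labelled wild type, with means of 2.20 ± 0.556 and 4.17 ± 0.523 CPM (SD, n = 4). Every library labelled heterozygous was below every library labelled wild type. As a log2 fold change the difference was -0.92 ± 0.24 (SE), with an unadjusted p of 0.000813 and a Benjamini-Hochberg p of 0.122 by edgeR's quasi-likelihood fit, which misses the threshold. Its adjusted p lay between 0.0616 and 0.338 over the 18 alternatives tried, and the difference of mean log2(CPM + 0.5) was -0.65 within the first run and -0.97 within the second. Col8a2, the other chain of type VIII collagen, had 1.18, 0.696, 1.06 and 1.51 CPM and 1.05, 0.403, 1.78 and 1.70 CPM on 7 to 31 reads a library, with overlapping genotypes and a log2 fold change of -0.14 ± 0.41 (SE). Col26a1, Col7a1 of anchoring fibrils and Col28a1 had log2 fold changes by genotype of -0.21, 0.05 and -0.85, none of them called. Col28a1 had only 5 to 26 reads a library.

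Of the fibril-associated collagens, which sit on the surface of fibres, Col16a1 had the highest level per length at 2.24 CPM per kilobase of merged exons, with 16.8, 15.0, 14.8 and 14.6 CPM in the libraries labelled heterozygous and 11.8, 16.3, 15.3 and 16.5 CPM in those labelled wild type. The groups overlapped, with a log2 fold change of 0.03 ± 0.11 (SE). Col9a3, a chain of type IX collagen, had 9.24, 8.35, 6.09 and 5.49 CPM and 5.47, 8.64, 9.05 and 5.76 CPM. Of the heterozygous libraries the first run was higher, while wild type replicates 1 and 4, the females, were the lowest of their genotype. The log2 fold change by genotype was 0.04 ± 0.18 (SE), and the end of Col9a3 overlaps Tcfl5. Col12a1 (ENSMUSG00000032332.17, chromosome 9 from 79598991 to 79718831), a gene of load-bearing connective tissue, had 21.3, 25.2, 20.4 and 22.8 CPM in the libraries labelled heterozygous and 15.2, 17.7, 16.7 and 20.1 CPM in those labelled wild type, with means of 22.4 ± 2.11 and 17.4 ± 2.05 CPM (SD, n = 4). The groups did not overlap, and the nearest libraries, heterozygous replicate 3 and wild type replicate 4, stood at 20.4 and 20.1 CPM. The log2 fold change was 0.36 ± 0.10 (SE), with a Benjamini-Hochberg p of 0.185 by edgeR's quasi-likelihood fit, and did not pass. The other 5 genes of this class were Col9a2, Col14a1, Col19a1, Col20a1 and Col22a1, with log2 fold changes by genotype between -0.15 and 0.21 and none called.

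Transmembrane collagens span the cell membrane and shed their outer part. Col25a1, a collagen of neurons first known from amyloid plaques, had 3.14 CPM per kilobase of merged exons. It had 37.7, 47.3, 41.6 and 47.5 CPM in the libraries labelled heterozygous and 35.6, 37.9, 35.0 and 42.2 CPM in those labelled wild type. The groups overlapped, with wild type replicate 4 above heterozygous replicates 1 and 3. Its log2 fold change came to 0.20 ± 0.08 (SE), with a Benjamini-Hochberg p of 0.470 by edgeR's quasi-likelihood fit. Col23a1 had 9.66, 14.0, 13 and 11.4 CPM and 7.97, 9.73, 10.1 and 12 CPM, with overlapping groups and a log2 fold change of 0.27 ± 0.14 (SE). Col13a1, whose upstream sequence with a MEF2 site is shown above, had 0.355, 0.232, 1.24 and 0.840 CPM in the libraries labelled heterozygous and 0.466, 0.518, 0.687 and 0.727 CPM in those labelled wild type, on 4 to 20 reads a library. Its log2 fold change by genotype was 0.14 ± 0.50 (SE), and the 2 lowest libraries were heterozygous replicates 1 and 2 of the first run.

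**Figure D3:**
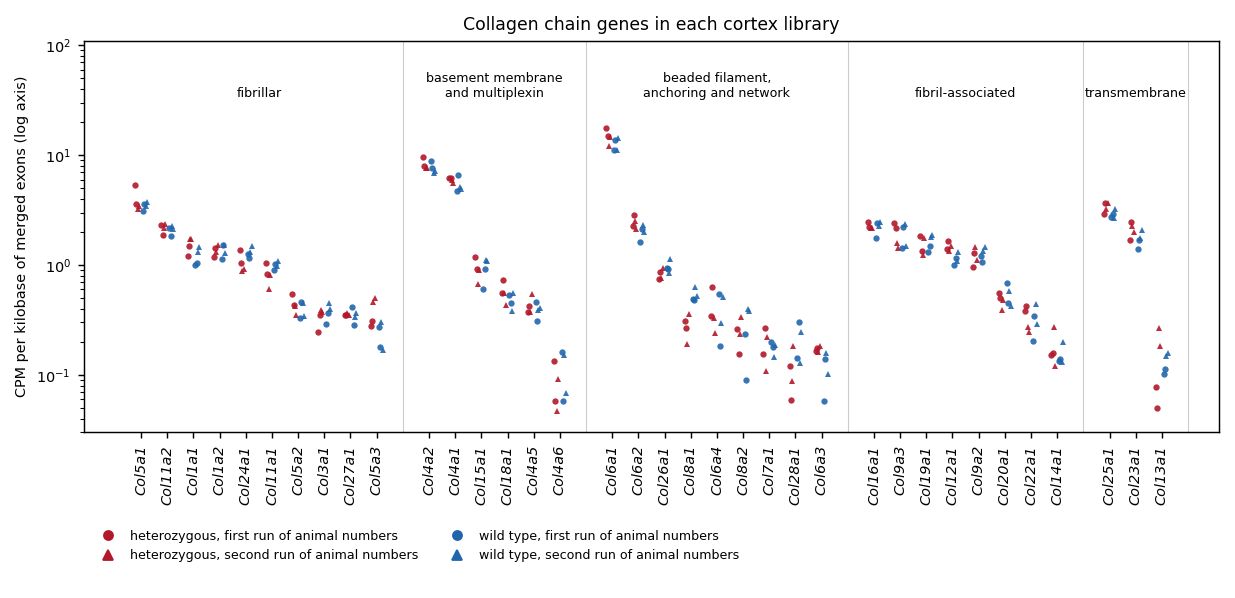
CPM per kilobase of merged exons on a log axis for the 36 collagen chain genes, grouped by class and ordered by mean level, with 1 point per library, colour for the labelled genotype and shape for the run of animal numbers. Col6a1 was the highest and Col4a6 the lowest by mean, and in Col8a1 all 4 red points lie below all 4 blue ones.

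The comparison of the genotypes asked whether connective tissue genes differ with the Mef2c label. No gene of the 49 was called, neither among the 36 collagens nor among the 13 leptomeningeal genes. Of the collagens, 24 had a log2 fold change above 0 and 12 below, with a median of 0.06, and of the leptomeningeal genes 9 were above and 4 below, with a median of 0.19. Over all genes tested 49.5% were above 0. By class the medians were 0.04 for fibrillar collagens, 0.12 for those of basement membranes, 0.05 for beaded filament, anchoring and network collagens, 0.04 for fibril-associated and 0.20 for transmembrane collagens. They were 0.31 for the proteoglycans, 0.14 for the transporters, 0.13 for Igf2 and Igfbp2 and 0.06 for Foxc1 and Aldh1a2. The groups did not overlap for 2 genes that were higher in the libraries labelled heterozygous, Col12a1 and Col6a3, and for 1 that was lower, Col8a1. For Col6a3 the nearest libraries stood at 1.93 and 1.89 CPM, in an order that depends on the scaling. Over all genes tested, 2.16% had no overlap and were higher and 2.38% had none and were lower, so the 3 of 49 stand near the background.

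**Figure D4:**
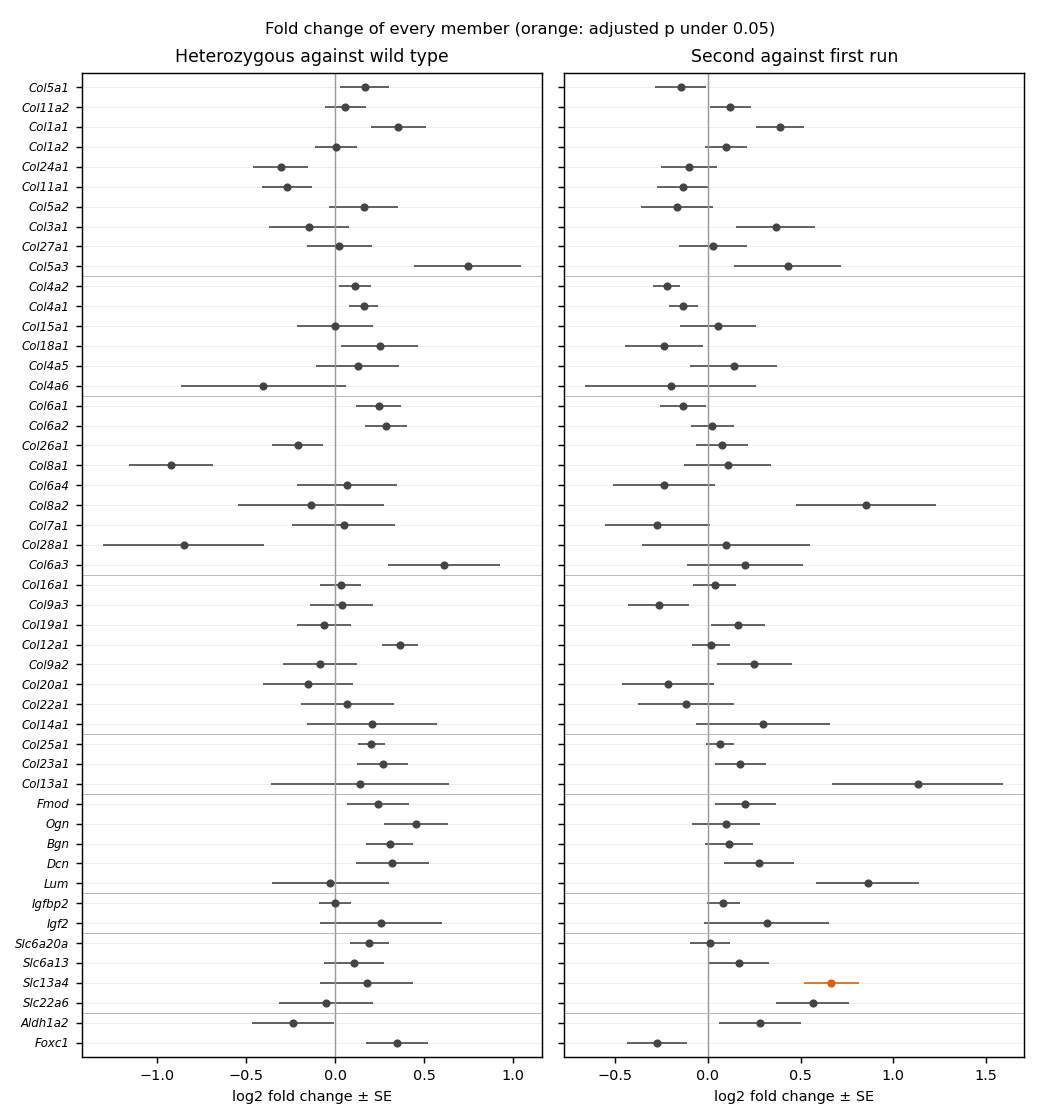
Log2 fold change with its standard error for each of the 49 genes, grouped by role as in the text and separated by lines, for heterozygous against wild type (left) and the second against the first run of animal numbers (right). No gene was called by genotype, Col8a1 lies farthest to the left there at -0.92, and Slc13a4, in orange, was the 1 gene called between the runs.

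The comparison of the runs of animal numbers asked how far these genes follow a split of the animals that the labels leave unexplained. Slc13a4 was the 1 call, and 7 of the 49 had an unadjusted p under 0.05 (14.3%, beside 10.2% of all genes), 6 higher and 1 lower in the second run. The 6 include Col13a1, which met the read minimum only through the second run, so the share of 14.3% rests in part on how that gene was chosen. The runs did not overlap for 3 genes that were higher in the second, Col3a1, Col13a1 and Lum, where 2.57% of all genes had no overlap in that direction, and for none that was lower, where 2.90% had none. For Col13a1 the difference was built into its choice, and its log2 fold change was 1.13 ± 0.46 (SE). The median log2 fold change was 0.20 over the 13 leptomeningeal genes, of which 12 were above 0, Foxc1 being the exception at -0.27. It was 0.05 over the 36 collagens, of which 22 were above 0, and 0.002 over all genes tested. The difference between the 2 medians was not tested.

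Between males and females none of the 49 was called (0.0288% of all genes were), and 3 had an unadjusted p under 0.05 (6.12%, beside 2.92% of all genes): Col9a3, with a male minus female log2 fold change of 0.40, Col25a1 with -0.18 and Col6a4 with -0.76. Of the 13 leptomeningeal genes 3 had such a log2 fold change above 0 and 10 below, with a median of -0.16. Of the 36 collagens 19 were above 0 and 17 below, with a median of 0.006. The share above 0 among all genes tested was 50.1%. The genotype effect did not pass a test of a difference between the sexes for any of the 49 (0% of all genes were called), with Col1a2 the 1 gene at an unadjusted p under 0.05 (2.04%, beside 2.64% of all genes). It did not pass one between the runs either (0.00721% of all genes were called), where 7 of the 49 had an unadjusted p under 0.05, or 14.3%, beside 4.09% of all genes. These were Igfbp2, Col15a1, Col5a1, Slc6a20a, Col24a1, Col22a1 and Col9a3, and in each the genotype difference was lower in the second run than in the first. For Igfbp2 the difference of mean log2(CPM + 0.5) between the genotypes was 0.23 in the first run and -0.22 in the second, and for Col15a1 it was 0.45 and -0.45.

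Genes that make, bind or cut collagen were measured beside the chains. Of 26 tested genes of collagen maturation, 17 had a log2 fold change above 0 by genotype, with a median of 0.03 and none called. The smallest p among them was that of Adamts2, whose product trims the amino end of fibrillar procollagen, with 10.5, 11.5, 11.2 and 13.3 CPM in the libraries labelled heterozygous and 8.38, 10.1, 8.48 and 7.45 CPM in those labelled wild type. Its groups did not overlap, and its log2 fold change was 0.43 ± 0.13 (SE) with a Benjamini-Hochberg p of 0.262 by edgeR's quasi-likelihood fit. P4ha2, a subunit gene of prolyl hydroxylase, had a log2 fold change of 0.38 ± 0.14 (SE). The 9 collagen receptor genes had a median of 0.04 by genotype with none called, led by the integrin genes Itga11 (0.57) and Itga10 (0.38). Between the runs the receptor kinase gene Ddr1 had a log2 fold change of 0.28 ± 0.07 (SE), with a Benjamini-Hochberg p of 0.0688 by edgeR's quasi-likelihood fit. Of 8 proteases and their inhibitors 6 were above 0 by genotype with none called, and the inhibitor genes Timp2 (0.18) and Timp3 (0.15) had the smallest p.

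Other genes of the insulin-like growth factor pathway had a median of -0.02 by genotype over 12 tested, with none called and Igfbp3 (0.25) and Igfbp5 (-0.10) leading. Of 29 further matrix genes 18 were above 0, with a median of 0.04 and none called. Spp1, the osteopontin gene, had 0.43 and the laminin gene Lama2 0.38. Between the runs the same list had a median of -0.07, and Fn1, the fibronectin gene, had a log2 fold change of -0.30 ± 0.07 (SE) with a Benjamini-Hochberg p of 0.0772 by edgeR's quasi-likelihood fit, which did not pass. The 2 leading genes of the further meningeal markers by genotype were Ranbp3l (-0.59) and Apod (0.18), and between the runs Nov (0.22) and Slc47a1 (0.67). By genotype the medians of the other cell type lists were -0.12 for endothelial cells, -0.05 for pericytes and smooth muscle, -0.02 for astrocytes, -0.003 for oligodendrocyte precursors, 0.08 for cortical neurons, 0.20 for choroid plexus, 0.11 for cartilage, bone and head muscle and -0.40 for red blood cells, with no gene of them called. The 2 genes of smallest p in each were Emcn (-0.31) and Tek (-0.23) of endothelial cells, Rgs5 (-0.14) and Kcnj8 (0.37) of pericytes, Gfap (0.36) and Slc1a2 (-0.08) of astrocytes, Neu4 (0.27) and Gpr17 (0.07) of oligodendrocyte precursors, Neurod6 (0.25) and Tbr1 (0.12) of cortical neurons, Kl (0.56) and Ttr (0.80) of choroid plexus, Sp7 (0.50) and Alpl (-0.23) of bone, and Hbb-bt (-0.93) and Alas2 (-0.91) of red blood cells, each given as a log2 fold change. All 5 red blood cell genes tested were below 0, 2 of them at an unadjusted p under 0.05. All 10 cortical neuron genes tested were above 0, 3 of them at an unadjusted p under 0.05. Of all genes tested 7.24% stood under that p in either direction.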

How the data were processed

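Counts were those the authors deposited, whole reads per gene symbol and not normalised. STAR 2.5.2b, HTSeq and the build mm10 are named, per the submitters' processing notes. For annotation and strand setting the answer is not given in the sources used here, so reads of antisense or overlapping genes cannot be told apart. Per the labels' protocols, RNA was enriched for polyadenylated transcripts. Genes were kept with filterByExpr by genotype (minimum count 10), which left 13879 genes, all 49 described ones among them, and libraries were scaled by TMM. edgeR 4.0.16 in R 4.3.3 gave the quasi-likelihood tests, with terms for sex and genotype, for the run, and for each interaction, adjusted over all genes. The same fits were tested on simulated counts. Positions and merged exon lengths came from GENCODE M21 (GRCm38) and upstream sequences from RefSeq. Merged exons cover every annotated transcript of a gene, so a comparison per length between genes depends on the annotation. Libraries were separate mice, and no pair within a genotype agreed within sampling noise (lowest chi-square per degree of freedom 4.12). The genes and lists were chosen with earlier results of these data known. Values per library are given for called genes, for the 2 genes of highest level per length in each role, for the 6 of smallest p by genotype and by run, and for the 6 of largest ratio between libraries at a mean of at least 1 CPM; Bgn, Dcn, Col1a2 and Col3a1 were added to these 29 genes after their values were seen, and others are named with fewer values. A floor of 3 reads, 0.168 to 0.186 CPM, was set by choice and not measured from these data.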

Additional observations from a re-analysis of the deposited data

Results flagged for a closer look

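In 4 of the 98 groups of 4 libraries (49 genes in each genotype), 1 library stood far from the other 3, with a gap to the next library that passed Dixon's 95% critical value for its share of the group's range, where chance gives about 1 in 20 groups. Col5a1 had 45.7 CPM in heterozygous replicate 1 and 27.6 to 30.3 CPM in the other libraries labelled heterozygous. Fmod had 14.8 CPM in wild type replicate 1 and 19.0 to 19.6 CPM in the other wild type libraries. Col14a1 had 1.39 CPM in wild type replicate 4 and 0.917 to 0.979 CPM in the others, on only 23 reads beside 16 to 17. Col27a1 had 4.78 CPM in heterozygous replicate 3 and 4.53 to 4.56 CPM in the others, a gap that is small in size. The cause of these gaps was not tested.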

How the results depend on the processing

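No gene of the 49 was called by genotype under any of 18 alternatives, by sex under any of 16, or for a difference of the genotype effect between the runs or the sexes under any of 14 each, each library left out in turn included (0 to 0 called genes in every such range). Of all genes, 37 were called by genotype as reported and 19 to 124 over the alternatives, 53 and 11 to 95 between the runs, 4 and 2 to 6 by sex. The count between the runs, 1 as reported, was 0 with limma-voom, 0 with the RNA integrity number as a term, and 0 to 1 with each library left out; the cause was not tested. The log2 fold change of Slc13a4 between the runs lay between 0.53 and 0.82 over 15 alternatives, 7 of which kept its call. For the 29 genes chosen by rule for values in each library (Bgn, Dcn, Col1a2 and Col3a1 were not among them), 56 of 955 log2 fold changes under an alternative had the other sign, none of them past a test. The labels name no pairs of animals, but each sex and run holds 1 animal of each genotype. A fit by genotype with a block for each sex and run, which matches these animals, called 0 of the 49. Such a block could not be used for the comparisons of sex and of run. Depth limits the low genes: Igf2, Lum, Col4a6, Col5a3, Col6a3, Col7a1, Col8a2, Col13a1, Col14a1, Col20a1 and Col28a1 had 20 to 61 reads in their highest library.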

Other observations

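Chains of one collagen type were also compared within a library as ratios of CPM, which are not per length and are set side by side across libraries only. The ratio of Col1a2 to Col1a1 lay between 1.43 and 2.73, with a mean of 1.69 ± 0.194 (SD, n = 4) over those labelled heterozygous and 2.19 ± 0.441 (SD, n = 4) over those labelled wild type, and the groups overlapped. That of Col4a2 to Col4a1 lay between 1.02 in wild type replicate 2 and 1.65 in wild type replicate 1. Col6a1 to Col6a2 lay between 2.52 and 4.13, and Col9a3 to Col9a2 between 1.28 and 3.12.

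Heterozygous replicate 1 was the highest library for 7 of the 36 collagens (19.4%) and for 0 of the 13 leptomeningeal genes, and the lowest for 3 (8.33%) and 6 (46.2%). Of all genes tested, it was the highest for 15.1% and the lowest for 15.2%, so the collagen counts stand near the background. Its summed collagen level was 479 CPM, the highest of the 8 libraries, and its leptomeningeal sum of 129 CPM was the second lowest. Wild type replicate 1 was the lowest library for 13 of the 36 collagens, 36.1%, beside 13.3% of all genes tested.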
